A study of Homo sapiens with 4 samples.

Results

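Open chromatin was examined around the 4 genes of the IRE1 and XBP1 splicing arm of the unfolded protein response: ERN1, ERN2, XBP1 and RTCB. A region was taken as belonging to a gene when a peak in it had its midpoint within 50 kb of the gene's hg19 start site (ERN1 chr17:62207502, ERN2 chr16:23724821, XBP1 chr22:29196560, RTCB chr22:32808253), and as a promoter region when a peak midpoint lay within 2 kb. This gave 28 of the 78788 regions in the whole data set, with 10 around ERN1, 7 around ERN2, 5 around XBP1 and 6 around RTCB. The rule used position only and no measured value. The peak nearest the edge of the window on the inside lay 43.3 kb from ERN1 (5 reads at its summit, DMSO replicate 1), and the nearest outside lay 55.2 kb from XBP1 (3 reads, DMSO replicate 1).

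IRE1 is a transmembrane sensor of the endoplasmic reticulum (ER) with a kinase and an endoribonuclease domain on its cytosolic side. When unfolded proteins accumulate it oligomerises and cuts a short intron out of XBP1 mRNA in the cytosol. The tRNA ligase RTCB joins the exons, and the frame shift yields the active transcription factor XBP1s. ERN1 encodes the widely expressed IRE1α, and ERN2 encodes IRE1β, known mainly from the mucus-producing epithelium of the gut and airway. XBP1 is also induced as a gene in ER stress, through ER stress response elements (ERSE) in its promoter that ATF6 binds together with NF-Y.

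ATAC-seq, an assay that marks open chromatin through the insertion of adapters by a transposase, had been done on the wild-type human colorectal cancer line HCT116, with 50000 cells per library. The control group held 2 libraries of cells kept for 6 h in 0.1% DMSO, the solvent. The treated group held 2 libraries of cells kept for 6 h in tunicamycin at 0.5 µg/ml, which blocks the first step of N-glycosylation and so causes ER stress. The series describes the libraries of each group as biological replicates. Chromatin near genes that would mark the cell type was not analysed here.

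The lists held 56566 to 62526 peaks per library, with median widths of 159 to 161 bp. The summit of a peak carried a median of 15 reads in 3 libraries and 16 in tunicamycin replicate 2. These numbers of reads are whole-number pileups recovered from the authors' fold and p-value for each peak, and the labels do not say what the peak caller piled up. The background recovered most often was 0.14 reads per position in replicate 1 of each group, 0.147 in DMSO replicate 2 and 0.143 in tunicamycin replicate 2. Every fold and −log10 q-value below is the authors' own value for that peak within its library.

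The sequence just upstream of the RefSeq start sites is shown first, and the promoter peaks described below lie around the hg19 start sites. Those peaks cover the upstream side only in part. They reached 172 to 190 bp upstream of the hg19 start at XBP1 and 53 to 64 bp at ERN1. At RTCB they reached up to 76 bp upstream, and in DMSO replicate 2 the peak ended 2 bp downstream of the start. RefSeq's table of promoters (GRCh38.p14) matched 3 of the 4 genes. ERN2 had no entry. The 250 bases before the annotated start are printed 5′ to 3′ on the minus strand, at chr22:28800570-28800819 for XBP1 (the first of 2 listed starts), chr17:64130145-64130394 for ERN1 and chr22:32412248-32412497 for RTCB. Capitals mark every CCAAT and CCACG, read on either strand (ATTGG and CGTGG on the other).
XBP1: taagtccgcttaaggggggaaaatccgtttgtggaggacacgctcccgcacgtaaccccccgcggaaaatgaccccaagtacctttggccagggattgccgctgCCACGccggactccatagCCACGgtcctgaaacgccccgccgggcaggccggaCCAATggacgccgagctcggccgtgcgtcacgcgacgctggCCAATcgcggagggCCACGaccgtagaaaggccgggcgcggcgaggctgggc
ERN1: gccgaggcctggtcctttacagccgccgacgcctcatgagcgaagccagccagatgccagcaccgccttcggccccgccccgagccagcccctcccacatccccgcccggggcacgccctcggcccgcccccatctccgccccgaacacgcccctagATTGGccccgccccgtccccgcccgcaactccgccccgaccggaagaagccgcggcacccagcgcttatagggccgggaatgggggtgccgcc
RTCB: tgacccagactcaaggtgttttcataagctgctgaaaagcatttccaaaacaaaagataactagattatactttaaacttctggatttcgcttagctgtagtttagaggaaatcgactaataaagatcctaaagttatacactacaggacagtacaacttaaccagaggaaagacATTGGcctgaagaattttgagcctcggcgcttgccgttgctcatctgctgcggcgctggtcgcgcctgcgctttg

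Only the XBP1 sequence of these 3 held a complete ERSE, which is CCAAT and CCACG with 9 bases of any kind between them. It ran from 52 to 34 bp upstream of the RefSeq start. The match includes a CCAAT and a CCACG that are counted again under those shorter motifs. The same 19 letters, on either strand, were found in 26 of 35116 RefSeq promoter sequences of this length (0.074%). XBP1 also held CCACG at 146 to 142 and at 128 to 124 bp, and a second CCAAT at 93 to 89 bp. All these XBP1 positions refer to the first listed start. Before the other listed XBP1 start there was no ERSE and no CCAAT. That sequence held CCACG at 38 to 34 bp and, on the opposite strand, at 81 to 77 bp. CCACG alone occurs in 33.5% of all promoters and CCAAT alone in 32.0%. ERN1 held a CCAAT on the opposite strand at 93 to 89 bp and RTCB at 75 to 71 bp, with CCACG in neither. The XBP1s-type element TGACGTGG (0.612% of all promoters) and the cyclic AMP element TGACGTCA (1.65%) were found in none of the 3 on either strand. The bases were 75.2% G or C upstream of ERN1, 67.6% upstream of XBP1 and 43.2% upstream of RTCB, where the median of all promoters was 58.0%.

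A list of 33 other genes held partners of IRE1 and RTCB, targets of XBP1s and, from the parallel arms of the response, the sensors EIF2AK3 and ATF6 with the factors ATF4 and DDIT3. Of these genes, 31 had a promoter in the table. The full ERSE was found for 4 of the 31: HSPA5, which encodes the chaperone BiP, PDIA6, a disulfide isomerase, ERO1B, an oxidase of the ER, and CRELD2, an ER-resident secreted protein. TGACGTGG was found for 3, namely HYOU1, an ER chaperone, SRP19, a subunit of the signal recognition particle, and SSR3, a subunit of the translocon-associated complex. CCACG was present for 25 of the 31 and CCAAT for 23, beside 33.5% and 32.0% of all promoter sequences. A gene counted here when any of its listed starts had the motif, whereas the shares of all promoters count each sequence separately. The counts and the shares are therefore not like for like, and enrichment was not tested. Chromatin near these 33 genes was not analysed here.

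Of the 28 regions, 14 (50%) had a peak in all 4 libraries, beside 51.3% of all regions. A further 1 region (3.57%) was listed after tunicamycin in both replicates and in no control, beside 3.65% of all regions. The reverse held for 1 region (3.57%), beside 1.86% of all. Peaks found in a single library made up 4 of the 28 regions (14.3%), beside 22.3% of all. The members' shares of shared and of group-specific regions were therefore near those of the whole data set.

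The 4 loci held 22 and 19 peaks in DMSO replicates 1 and 2, and 22 and 21 in tunicamycin replicates 1 and 2. The means of 20.5 ± 2.12 (SD, n = 2) and 21.5 ± 0.707 (SD, n = 2) gave p = 1 in a two-sided exact permutation test, in which 2 libraries against 2 cannot go below p = 0.333. With every list reduced to its 56566 best peaks the difference of 1 peak became -1. The groups overlap in the number of peaks.

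**Figure D1:**
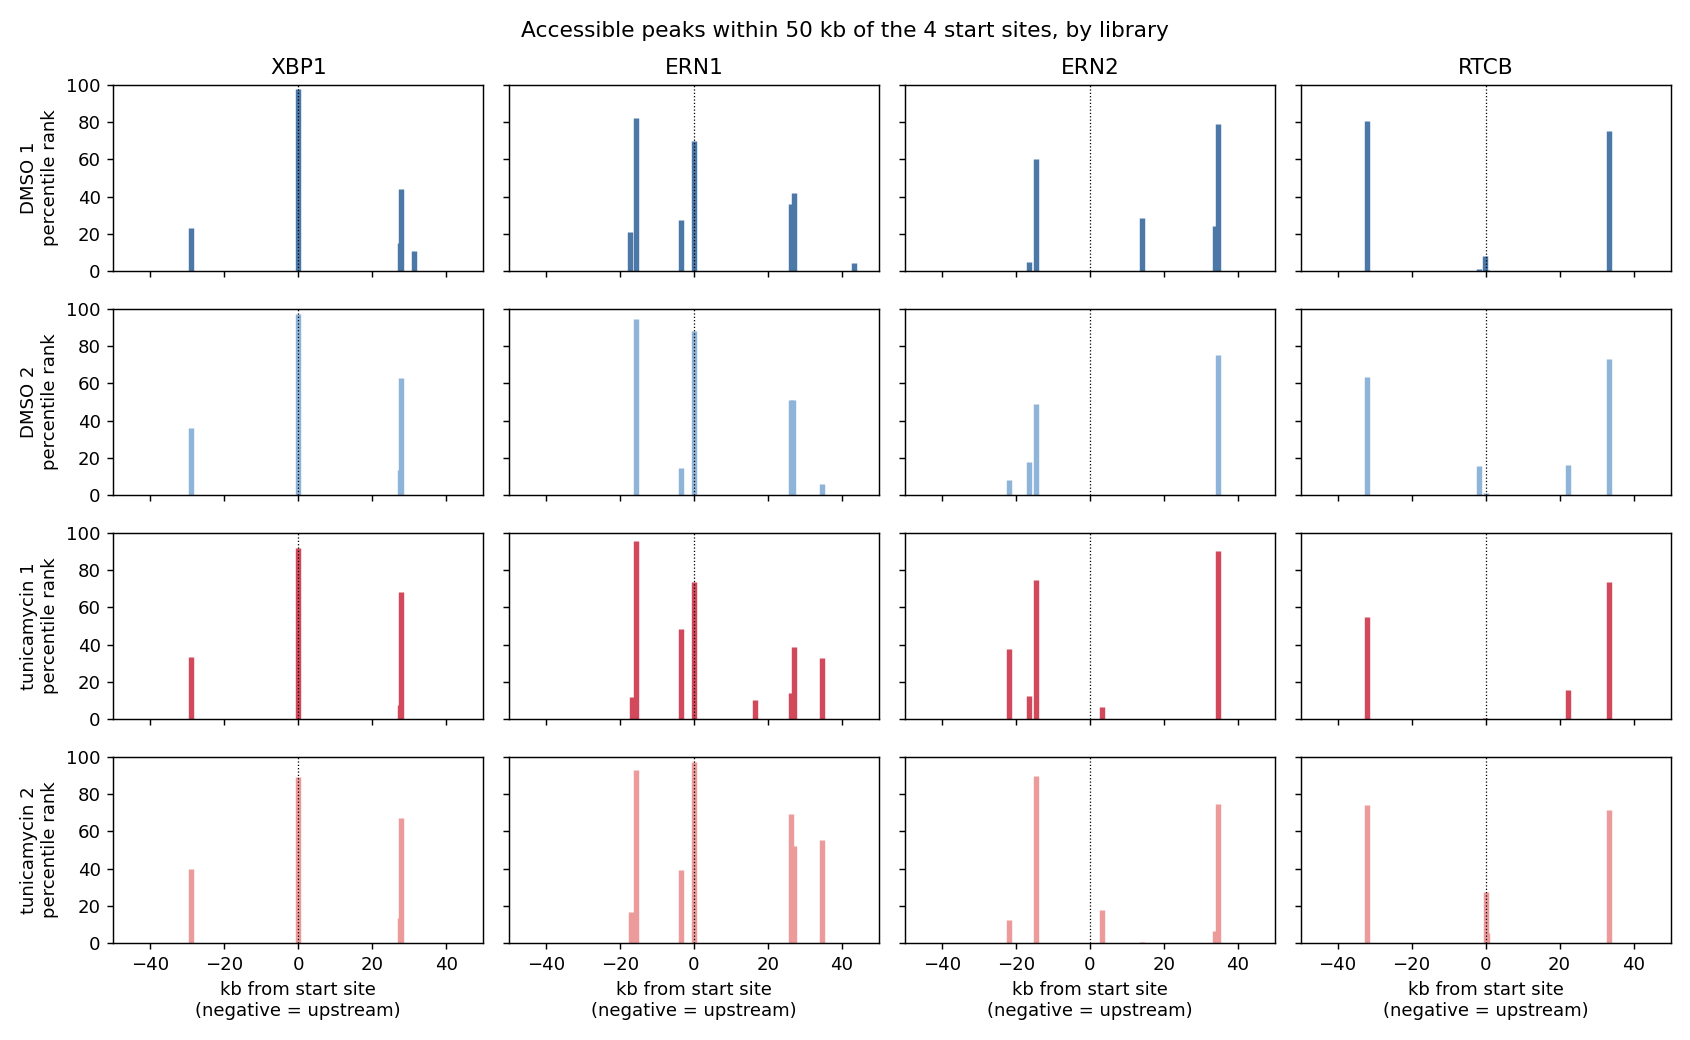
Peaks within 50 kb of each start site (columns) in each library (rows). The horizontal axis gives each summit's distance in kb from the start site, with upstream to the left, and the height of each line is the percentile rank of the peak's −log10 q-value within its own list. XBP1 has its tallest line at the start site in every library, ERN2 has none there, and the RTCB start site ranks at or below 27.3 while the sites 33.4 kb downstream and 32.1 kb upstream rank from 54.6 to 80.7.

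XBP1, the transcription factor of the arm, had the strongest promoter peak of the 4 genes in both DMSO libraries, and in both tunicamycin libraries that peak was weaker than in either control. The region at chr22:29196485-29196750 carried 53 and 51 reads at its summit in DMSO replicates 1 and 2, and 38 and 39 in tunicamycin replicates 1 and 2. The groups did not overlap. The exact Poisson 95% intervals, which cover counting error only, were 39.7 to 69.3 and 38.0 to 67.1 reads for DMSO and 26.9 to 52.2 and 27.7 to 53.3 for tunicamycin, so each tunicamycin interval overlaps each DMSO interval.

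Fold over the local background at the XBP1 promoter was 23.9 and 24.3 in DMSO and 19.6 and 19.1 in tunicamycin. The local background itself was 1.26, 1.14, 0.986 and 1.09 reads per position in DMSO replicates 1 and 2 and tunicamycin replicates 1 and 2. The −log10 q-value was 61.7 and 60.7 against 42.8 and 42.9. The width of the peak overlapped between the groups, at 255 and 248 bp in DMSO and 252 and 266 bp in tunicamycin. Its summit lay 84 bp upstream of the start site in both DMSO libraries and 109 and 95 bp upstream in the tunicamycin libraries.

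To test such differences, the peaks of the 40447 regions listed in all 4 libraries were ranked by −log10 q-value within each library. The ranks were turned into normal scores, for which 1 unit is 1 SD of the ranked regions, and limma compared the 2 groups over all 40447 regions. The XBP1 promoter moved from percentile 97.2 and 96.5 of these common regions in DMSO to 88.3 and 83.8 in tunicamycin. Its score change was -0.78 ± 0.267 (SE), which after Benjamini-Hochberg adjustment did not pass 0.05 (limma adjusted p = 0.433). With each library left out in turn the change ran from -0.88 to -0.67 and the limma adjusted p from 0.525 to 0.721.

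**Figure D2:**
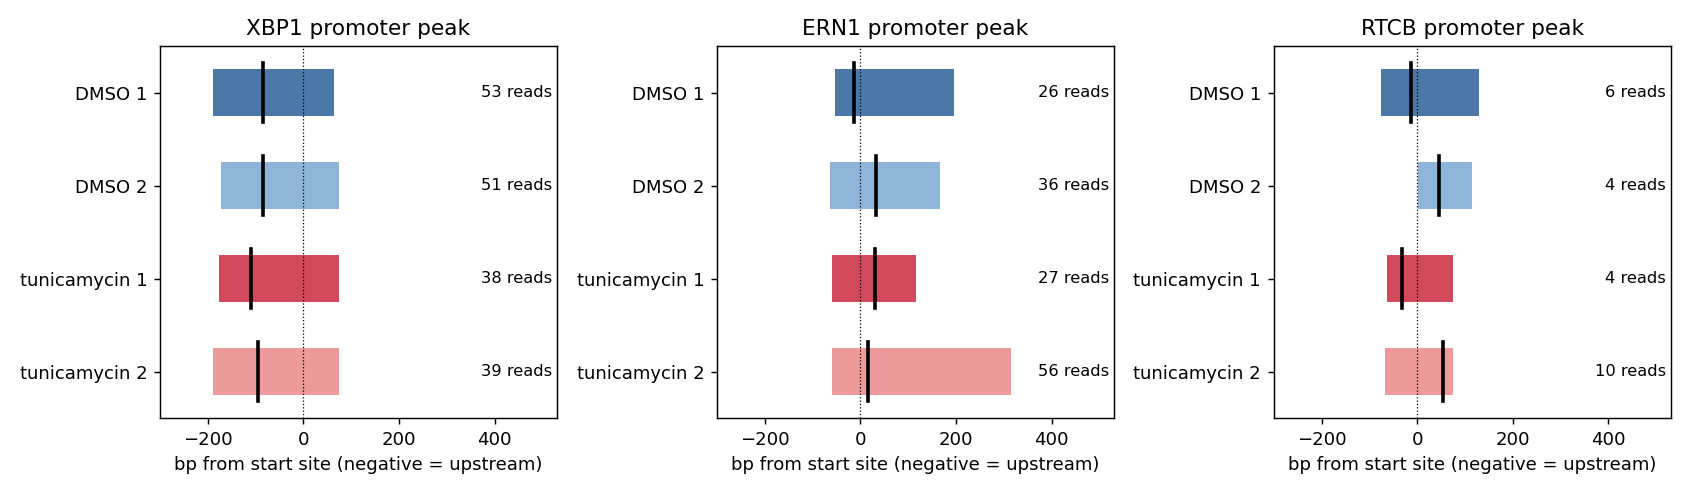
Extent of the promoter peak (bar), its summit (black line) and the reads at the summit (text) for XBP1, ERN1 and RTCB in each library, against the distance from the hg19 start site in bp, with upstream to the left. XBP1 has peaks of 248 to 266 bp with all summits upstream of the start, 53 and 51 reads in DMSO and 38 and 39 in tunicamycin, whereas ERN1 ranges from 26 to 56 reads and RTCB from 4 to 10.

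The ERSE shown in the printed XBP1 sequence begins 52 bp upstream of the first listed RefSeq start. The summits lie 84 to 109 bp upstream of the hg19 start. Coordinates were not converted between the builds, so whether both starts are the same base was not tested. If they are, the element lies inside the peak in all 4 libraries and on the side of the summit that faces the gene.

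The other open sites around XBP1 lay 29.0 kb upstream and 27.5, 27.9 and 31.3 kb downstream of its start. In RefSeq's gene order (GRCh38.p14) the neighbours are CCDC117 downstream and the pseudogene BBLNP2 upstream, with ZNRF3 the next coding gene there. The XBP1 gene model spans 6010 bp in that build, so sites more than 27 kb downstream of the start lie beyond a gene of that length. To which gene the sites on either side belong was not tested. The region 27.9 kb downstream (chr22:29168535-29168756) carried 14 and 19 reads in DMSO and 21 and 23 in tunicamycin. Both tunicamycin values lay above both controls, and common percentiles were 28.4 and 50.3 against 56.2 and 52.0 (change 0.38 ± 0.383, SE, limma adjusted p = 0.893). The change was 0.096 without DMSO replicate 1 and up to 0.67 with another library left out.

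A weaker region 27.5 kb downstream (chr22:29168894-29169137) had 9 and 9 reads in DMSO and 8 and 10 in tunicamycin. The reads overlapped, although its common percentiles of 5.09 and 4.12 in DMSO lay above the 1.73 and 2.88 of tunicamycin (change -0.32 ± 0.591, SE, limma adjusted p = 0.959). Upstream, at chr22:29225498-29225629, the region had 7 and 9 reads in DMSO and 9 and 10 in tunicamycin, with common percentiles that overlapped. The site 31.3 kb downstream was listed in DMSO replicate 1 alone, with 8 reads over 100 bp.

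ERN1, which encodes the sensor IRE1α, had an open promoter in every library, with large differences between libraries of the same group. The region at chr17:62207186-62207566 carried 26 and 36 reads in DMSO and 27 and 56 in tunicamycin. Tunicamycin replicate 2 stood above the other 3 libraries, while tunicamycin replicate 1 lay between the controls. Its peak was also the widest, at 376 bp, against 249 and 232 bp in DMSO and 177 bp in tunicamycin replicate 1. Summits lay from 14 bp upstream to 32 bp downstream of the start site. The score change of 0.42 ± 0.328 (SE, limma adjusted p = 0.846) reversed to -0.27 without tunicamycin replicate 2.

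The strongest and widest site around ERN1 outside its promoter was 15.8 kb upstream, at chr17:62223073-62223515. It carried 36 and 49 reads in DMSO and 53 and 52 in tunicamycin, with peaks of 443, 325, 415 and 358 bp in DMSO replicates 1 and 2 and tunicamycin replicates 1 and 2. Both tunicamycin read values lay above the controls, but the common percentiles of 75.5 and 92.7 in DMSO and 94.0 and 89.5 in tunicamycin overlapped (change 0.33 ± 0.286, SE, limma adjusted p = 0.868). In RefSeq's gene order the next gene upstream of ERN1 is the non-coding SNHG25, and the next coding gene is TEX2. To which of these genes the region belongs was not tested.

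Nearer the gene, a small site 3.6 kb upstream of ERN1 (chr17:62211035-62211206) carried 15 and 12 reads in DMSO and 19 and 19 in tunicamycin. Both tunicamycin libraries lay above both controls, and common percentiles went from 13.3 and 4.65 to 32.2 and 19.3. The change was 0.73 ± 0.494 (SE, limma adjusted p = 0.815), and it ran from 0.45 to 1.02 with each library left out. The local background there was 1.26 and 1.20 reads per position in DMSO and 1.07 and 1.35 in tunicamycin.

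The ERN1 gene model spans 91003 bp in GRCh38.p14, so that the 5 regions downstream of its start lay within a distance shorter than that gene. Whether they are intronic or exonic was not tested. A pair of narrow sites was common to all libraries. At 26.9 kb (chr17:62180517-62180650) the summits had 12 and 14 reads in DMSO and 12 and 16 in tunicamycin, and the groups overlapped. At 26.2 kb (chr17:62181242-62181412) they had 11 and 14 reads in DMSO, and 8 and 21 in tunicamycin, so that the tunicamycin libraries were the lowest and the highest of the 4.

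A site 34.5 kb downstream of the ERN1 start (chr17:62172867-62173083) was listed in 3 libraries. It had 5 reads in DMSO replicate 2, no listed peak in DMSO replicate 1, and 10 and 15 reads in tunicamycin replicates 1 and 2. Within their lists these peaks ranked at percentile 5.85 in DMSO replicate 2, 32.7 in tunicamycin replicate 1 and 55.6 in tunicamycin replicate 2. A control library without a listed peak may still hold reads there, so this region had no value in 1 control and entered no test. With only peaks of −log10 q of at least 10 kept, it counted as listed in both tunicamycin libraries alone, as did the site 3.6 kb upstream.

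The other 4 ERN1 regions were weak. The region 17.0 kb upstream was missing from DMSO replicate 2 and had 16 reads in DMSO replicate 1 and 14 and 16 in tunicamycin. Its DMSO summit was 17172 bp upstream of the start, and the tunicamycin summits were 16885 and 16943 bp upstream. Requiring a reciprocal overlap of 50% separated these peaks and raised the count of regions listed in both tunicamycin libraries alone from 1 to 2. Sites 16.5 kb upstream (12 reads) and 16.5 kb downstream (6 reads) were listed in tunicamycin replicate 1 only, and the site 43.3 kb downstream (5 reads) in DMSO replicate 1 only.

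**Figure D3:**
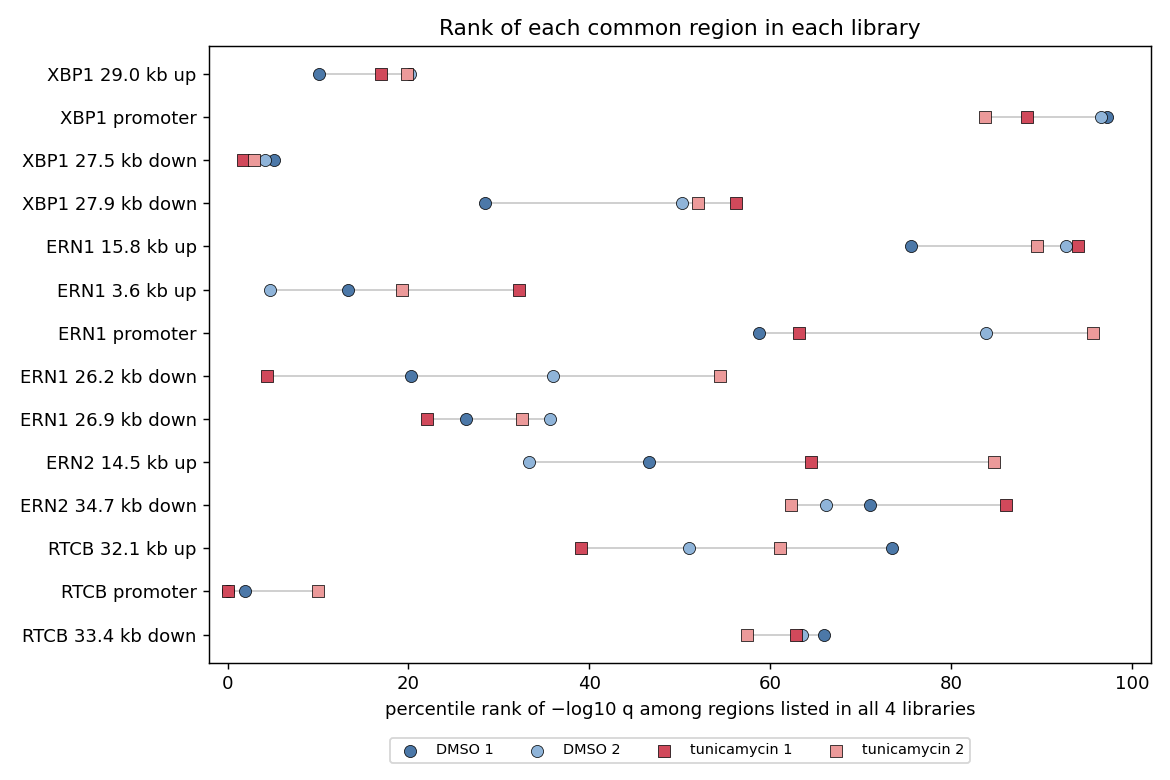
Percentile rank of the −log10 q-value among the 40447 regions listed in all 4 libraries (horizontal axis), for the 14 such regions around the 4 genes (vertical axis, named by distance upstream or downstream of the start). Circles are DMSO and squares tunicamycin. The groups do not overlap in 6 regions, 3 with tunicamycin to the right (XBP1 27.9 kb down, ERN1 3.6 kb up, ERN2 14.5 kb up) and 3 with it to the left (XBP1 promoter, XBP1 27.5 kb down, RTCB 33.4 kb down), beside 18% and 18.3% of all common regions.

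ERN2, the gene of the epithelial form IRE1β, had no listed peak within 2 kb of its start site in any of the 4 libraries. Its largest rank change lay 14.5 kb upstream, where the region at chr16:23739126-23739462 carried 16 and 13 reads in DMSO and 21 and 33 in tunicamycin. Both tunicamycin libraries lay above both controls. Counting intervals (exact Poisson, 95%) were 9.15 to 26.0 and 6.92 to 22.2 reads in DMSO and 13 to 32.1 and 22.7 to 46.3 in tunicamycin. Only the interval of tunicamycin replicate 2 and that of DMSO replicate 2 did not overlap.

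In ranks, the region 14.5 kb upstream of ERN2 moved from common percentiles 46.6 and 33.3 to 64.4 and 84.7. The change of 0.96 ± 0.354 (SE) did not pass the adjusted threshold (limma adjusted p = 0.478). It ran from 0.63 without tunicamycin replicate 2 to 1.28 without tunicamycin replicate 1. The local background was 0.392 and 0.329 reads per position in DMSO and 0.416 and 0.532 in tunicamycin, and the part of background in the difference was not tested. The peak was 108 bp wide in DMSO replicate 1 and 196 to 242 bp in the other 3 libraries. In RefSeq's gene order the next gene upstream is CHP2, which encodes a calcineurin B homologous protein.

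The single region of the 28 that was listed in both replicates after tunicamycin and in no control lay 3.3 kb downstream of the ERN2 start, at chr16:23721470-23721598. The ERN2 gene model spans 22913 bp in GRCh38.p14, so this distance falls within the length of the gene. Its peaks had 5 reads over 107 bp in tunicamycin replicate 1 and 7 reads over 121 bp in replicate 2. They ranked at percentile 6.32 and 18.0 of their lists, with −log10 q-values of 4.75 and 7.84. This is a weak site, and regions of this pattern are 3.65% of all regions.

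Of the remaining 5 ERN2 sites, 4 lacked a peak in some library and entered no test. At 34.7 kb downstream (chr16:23689968-23690259) all libraries listed a strong peak, with 26 and 24 reads in DMSO and 33 and 27 in tunicamycin. The tunicamycin values were above the controls in reads, while common percentiles of 71.0 and 66.1 overlapped with 86.1 and 62.2. PLK1, which encodes a mitotic kinase, is the neighbour on this side. The ERN2 gene model spans 22913 bp in GRCh38.p14, so sites 33.9 and 34.7 kb downstream lie beyond a gene of that length. To which gene they belong was not tested. The site 21.9 kb upstream had 5 reads in DMSO replicate 2, 9 and 6 in tunicamycin and no peak in DMSO replicate 1. At 16.5 kb upstream it was tunicamycin replicate 2 that listed no peak, and the other libraries had 6 to 8 reads. The sites 33.9 and 14.2 kb downstream were each listed in DMSO replicate 1 and tunicamycin replicate 2, with 12 and 9 reads in the control and 9 and 4 after tunicamycin.

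RTCB, which encodes the ligase that joins the XBP1 exons, had the weakest promoter peak of the 3 genes that had one. The region at chr22:32808124-32808329 carried 6 and 4 reads in DMSO and 4 and 10 in tunicamycin. The groups overlapped. Common percentiles were 1.97 and 0.0915 in DMSO and 0.0470 and 10.0 in tunicamycin, so in 3 libraries this promoter was among the lowest-ranked of all common regions. The change of 0.29 ± 0.695 (SE, limma adjusted p = 0.973) ran from -0.73 to 1.31 with each library left out.

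A second small site lay 0.3 kb downstream of the RTCB start and was listed in DMSO replicate 1 (4 reads) and tunicamycin replicate 2 (6 reads). The region 1.7 kb upstream, at chr22:32809884-32810008, was listed in both DMSO libraries, with 4 and 7 reads over 119 and 109 bp, and in neither tunicamycin library. It is the single region of the 28 with this pattern, which 1.86% of all regions share. Its −log10 q-values were 2.60 and 6.73, so that it no longer counted when peaks of at least 5 were required. BPIFC is the next gene upstream in RefSeq's order.

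Away from the start, 2 regions flanking RTCB were stronger than its promoter in every library. The region 33.4 kb downstream (chr22:32774756-32774992) had 20 and 19 reads in DMSO and 21 and 21 in tunicamycin. Its common percentiles of 65.9 and 63.5 lay above the 62.8 and 57.4 of tunicamycin, although its reads were not lower after tunicamycin (change -0.12 ± 0.339, SE, limma adjusted p = 0.978). The change ran from -0.19 to -0.050 with each library left out, and was nearest 0 without tunicamycin replicate 2. The region 32.1 kb upstream (chr22:32840207-32840417) had 21 and 15 reads in DMSO and 14 and 20 in tunicamycin, and the groups overlapped. A site 22.4 kb downstream was listed in DMSO replicate 2 and tunicamycin replicate 1, with 6 reads in each. The RTCB gene model spans 24666 bp in GRCh38.p14, so the region 33.4 kb downstream lies beyond a gene of that length. To which gene that region belongs was not tested.

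Across the 3 promoters with a peak, the order of levels within a library was not the same in all of them. XBP1 had the most reads in DMSO replicates 1 and 2 (53 and 51, against 26 and 36 for ERN1) and in tunicamycin replicate 1 (38 against 27). ERN1 exceeded XBP1 in tunicamycin replicate 2 (56 against 39). RTCB was below both genes in every library, with no more than 10 reads. These are reads at a single position within 1 library, so they are not scaled by length. The copy number of each locus was not measured, so its part in the order of the genes was not tested.

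Of the 14 common regions of the arm, limma called 0 at an adjusted p under 0.05, beside 0.0519% of all common regions. At an unadjusted limma p under 0.05 there were 2, the XBP1 promoter and the site 14.5 kb upstream of ERN2, beside 7.33% of all. The change was above 0 in 8 and below 0 in 6, with a median change of 0.18 beside 0.00 for all common regions. The 2 ranks after tunicamycin were both above the controls in 3 of the 14 and both below in 3, beside 18% and 18.3% of all common regions. The median size of the change, regardless of direction, was 0.32 for the 14 and 0.27 for all.

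**Figure D4:**
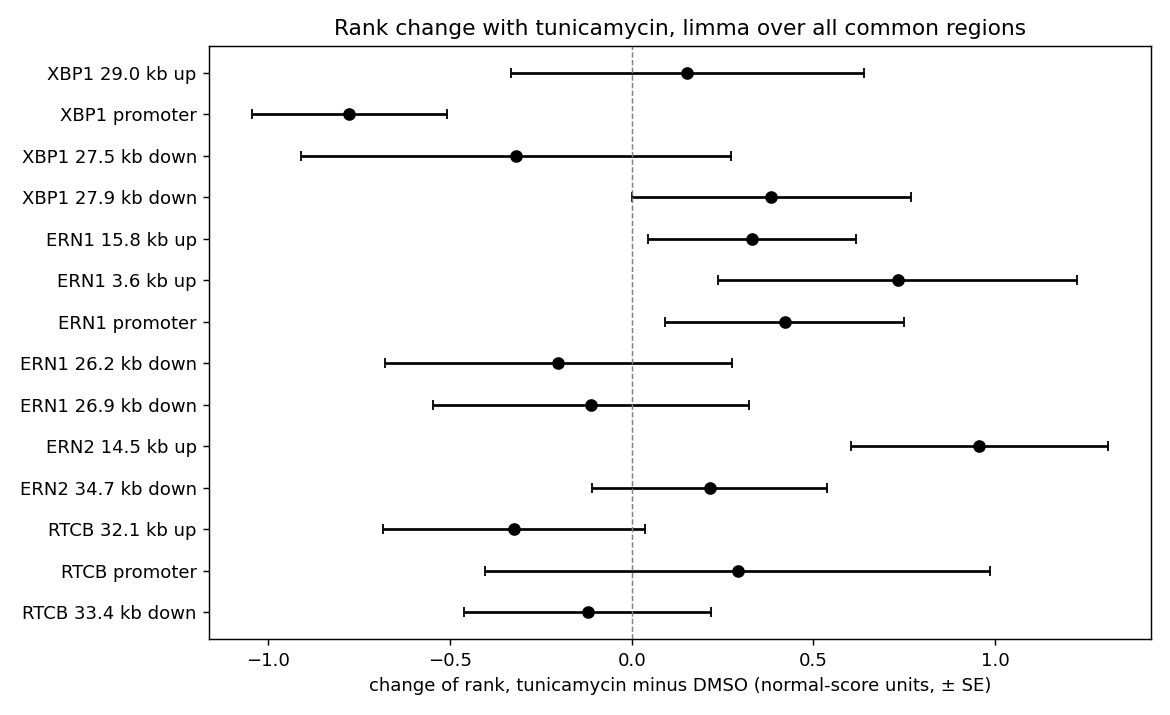
Change of rank with tunicamycin for the 14 common regions around the 4 genes, as tunicamycin minus DMSO in normal-score units (points) with the standard error from limma (bars), n = 2 libraries per group. The XBP1 promoter is farthest to the left at -0.78 and the site 14.5 kb upstream of ERN2 farthest to the right at 0.96, and neither passed the adjusted threshold.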

How the data were processed

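Accessible chromatin was measured by ATAC-seq in 4 libraries, grouped by their titles. Per the submitters' processing notes the tools were MACS2 2.2.7.1, Bowtie2 2.3.5.1 and Picard 2.18.23, with SAMtools, deepTools and Trim Galore, and the build was hg19; their settings, read shifts and peak filters are not given. For each library the authors deposited a peak list with a score (10-fold the −log10 q-value without its decimals, for at least 99.95% of peaks), a fold (a ratio of summit pileup to local background, each plus 1), −log10 p- and q-values and the offset of the summit in bp.

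Peaks sharing at least 1 bp were merged into regions (Python 3.11.15, pandas 2.3.3). The summit pileup was recovered as the whole number that gave the deposited fold and matched the deposited −log10 p-value within 0.001, which existed for 100% of peaks. Depth beyond this is unknown. Common regions were compared with limma 3.58.1 (R 4.3.3) on normal scores of the best −log10 q-value per region, with a trended prior and Benjamini-Hochberg adjustment over all common regions; 2 libraries per group limit precision. Merging, pileup recovery and the rank test were tested on simulated data. The shift planted for the rank test was larger than any change at the member regions, so detection of changes of their size was not tested. Regions named in the text were all promoter regions, all common regions, and those listed in both libraries of 1 group only; the weaker ones were added afterwards. Coordinates are 1-based. Promoter sequences, gene order and gene lengths are from RefSeq, GRCh38.p14. The members, lists and tests were chosen with earlier results of these data known. Alternatives were stricter q-values, lists of equal length, other windows, overlaps and ranks, leaving out each library, and a block for the replicate number.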

Additional observations from a re-analysis of the deposited data

How the results depend on the processing

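Limma called 0 of the regions near the 4 genes that entered each of the 12 fits, and 1 to 3 had an unadjusted limma p under 0.05. All 14 common regions entered the fits except with peaks of at least 130 bp (9 regions, without the site 14.5 kb upstream of ERN2) and with peaks up to 250 bp apart merged (13). The rank shifts kept their direction in 91 of 93 values under other settings and in 46 of 56 with a library left out. The 2 exceptions among the settings were the site 26.2 kb downstream of ERN1 (1.28 percentile points with plain ranks) and the site 27.5 kb downstream of XBP1, which gave 0.39 when peaks up to 250 bp apart were merged and it joined the stronger site beside it. With a library left out, the shift ran from -0.27 to 0.047 and from -1.11 to 0.71 at 26.9 and 26.2 kb downstream of ERN1, -0.27 to 1.11 at the ERN1 promoter, -0.051 to 0.71 at 15.8 kb upstream of ERN1, -0.17 to 0.60 at 34.7 kb downstream of ERN2, -0.73 to 1.31 at the RTCB promoter and -0.068 to 0.37 at 29.0 kb upstream of XBP1. It kept its sign at 32.1 kb upstream of RTCB (-0.62 to -0.024) and at 27.5 kb downstream of XBP1 (-0.43 to -0.21). Replicate numbers were not shown to pair the libraries (correlation of deviations 0.0111 over 40447 regions). With the replicate number as a block, 0 regions of the 14 were called and the smallest limma adjusted p was 0.349. Over all common regions the block moved the calls from 21 to 35.

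The 28 regions became 15 with a −log10 q of at least 10, 14 with a window of 20 kb and 47 with 100 kb. Under the same 3 settings the 14 common regions became 9, 6 and 23. Regions listed in both tunicamycin libraries alone numbered 2 with a −log10 q of at least 10, with 100 kb and with a reciprocal overlap of 50%. They numbered 1 to 4 with a library left out, when fewer lists define them. Regions listed in both DMSO libraries alone numbered 0 with a −log10 q of at least 5 or 10 and 1 to 3 with a library left out. The 5 promoter regions became 3 with a −log10 q of at least 10. The difference in peaks per library, 1 in the full lists, was -1 with lists of equal length and -0.5 to 2.5 with a library left out. Summits of 4 reads, as at the RTCB promoter in 2 libraries, lie close to what the caller can list, so a missing peak at such a site does not show closed chromatin.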
